A study of Oryzias melastigma with 12 samples.

Results

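Whole larvae of the marine medaka kept at 2 nM hexabromocyclododecane (HBCD) for 7 days were compared with larvae kept at 0.2 nM, on 6 of the 12 arrays of the series. HBCD is a brominated flame retardant that enters seawater and builds up in fish, and the species, Oryzias melastigma, lives in brackish and sea water and serves as a laboratory model in marine toxicology. The groups of the series were solvent control, 0.2 nM, 2 nM and 20 nM HBCD, with 3 arrays each, and all groups, the controls included, received dimethyl sulfoxide diluted 1 in 30000. Exposure began within 24 hours of hatching with 100 larvae in each of 3 dishes per group, and RNA came from pools of 30 larvae. No strain or sex is given in the labels. A pool of whole animals averages over all organs, so a change in a small organ is diluted, and fewer cells of a type cannot be told apart from less RNA per cell.

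In fish and mammals, HBCD is known to act on the liver enzymes that clear foreign compounds, on the thyroid hormone axis and on the balance of oxidants, and in fish larvae it has been studied for effects on the heart. A comparison of 2 exposed groups asks what the step from a lower to a higher concentration adds, with handling and solvent in common. The array files name probes only by the number of a custom design and hold no gene name and no probe sequence. None of the identifiers in a RefSeq table of 28599 genes could be joined to them (0 joined), so lists for these pathways, and markers to check the labelled tissue, could not be applied here. Results are therefore given for probes, and no sequence or gene role is stated. Each probe name ends in PI414333748, as in CUST_71_PI414333748, and that ending is left out from here on.

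The arrays lay on 3 slides of 4, and the slide and the position on it are given by the file headers. The second slide held replicates 2 and 3 at 2 nM on positions 1 and 2, and replicates 1 and 2 at 0.2 nM on positions 3 and 4. These 4 arrays form the main comparison, called the shared slide below. Replicate 3 at 0.2 nM was on the first slide with the 3 controls, and replicate 1 at 2 nM was on the third slide with the 3 arrays at 20 nM. On the shared slide, position and concentration cannot be told apart. In the pair of arrays left over, the order is reversed, with 2 nM on position 4 and 0.2 nM on position 1, but there slide and concentration cannot be told apart.

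The 75th percentile of the signal was 443 and 478 intensity units on the 0.2 nM arrays of the shared slide and 334 and 293 on the 2 nM arrays. It was 309 on the other 0.2 nM array and 366 on the other 2 nM array. The 0.2 nM arrays were thus the brighter ones on the shared slide and the dimmer one in the other pair. Levels below are log2 intensities relative to this percentile of the same array, so a level of 0 is the 75th percentile, and a level says nothing about one probe's RNA against another's. Of 26429 probes, between 11551 and 12819 were well above background on an array. The 11910 probes that were so on all 3 arrays of at least 1 of the 4 groups were tested. For probes with 5 spots, the median SD between spots on the same array was 0.069 to 0.099 (log2). The labels give 3 dishes per group but do not say which pool came from which dish, so the p-values measure the spread between these arrays.

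The step from 0.2 to 2 nM was wider than the distance between replicates on the shared slide, as a median over probes. Between the 0.2 nM replicates 1 and 2 the median absolute difference was 0.10 on the log2 scale, and between the 2 nM replicates 2 and 3 it was 0.16. The 4 pairs of arrays from different groups on that slide lay between 0.197 and 0.217. Arrays of the same group on different slides lay from 0.208 to 0.264, in part above the pairs from different groups. The number of probes that differed by 2-fold or more did not follow this order. It was 374 between the 0.2 nM replicates and 298 between the 2 nM replicates, against 237 and 273 for the pairs of 0.2 nM replicate 1 with an array at 2 nM and 486 and 490 for the pairs of 0.2 nM replicate 2.

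**Figure D1:**
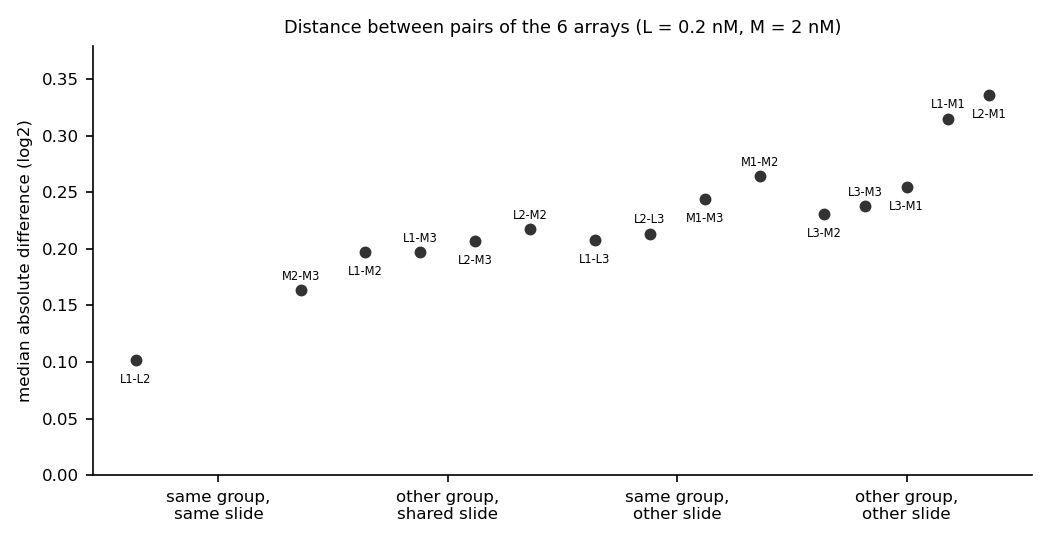
Median absolute difference (log2, vertical axis) over the tested probes for each pair of the 6 arrays, grouped by whether the arrays share group or slide; L is 0.2 nM, M is 2 nM, and the digit is the replicate. The smallest distances, 0.10 and 0.16, are between replicates on the shared slide.

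On the shared slide 4 of 11910 probes passed a limma adjusted p of 0.05, 2 higher and 2 lower at 2 nM, which is 0.0336% of those tested. At an unadjusted p under 0.05 there were 2193 probes, or 18.4%, with 1254 higher and 939 lower. The median absolute difference over all tested probes was 0.18, with a median SE of 0.14. The groups did not overlap for 6316 probes (53%), 3315 higher and 3001 lower at 2 nM. An exact permutation test of a single value of 2 arrays against 2 cannot go below p = 0.333. Differences of 2-fold or more were measured for 50 probes that were higher at 2 nM and 126 that were lower. Of these 176, 129 were in the dimmest quartile of the tested probes, where the median SE was 0.22.

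Probe CUST_15780 rose from 0.2 to 2 nM. Its level on the shared slide was -3.29 and -3.46 at 0.2 nM and -2.38 and -2.49 at 2 nM, a difference of 0.94 (SE 0.10, limma adjusted p = 0.0365) or 1.92-fold. The other arrays gave -3.86 at 0.2 nM, where the probe was not well above background, and -1.70 at 2 nM. All 3 arrays at 2 nM therefore stood above all 3 at 0.2 nM. The controls lay between the groups, at -2.92, -2.97 and -2.90, and the 20 nM arrays were at -2.06, -2.00 and -2.13, within the range of the 2 nM arrays. The call was lost under 12 of 24 alternatives. The limma adjusted p was 0.056 with quantile normalization, 0.269 with only the arrays compared and 0.9999 with normexp background correction (difference 0.30).

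Probe CUST_71, printed 5 times and bright on every array, fell. It stood at 7.73 and 7.88 on the 0.2 nM arrays of the shared slide and at 6.92 and 6.78 on the 2 nM arrays, a difference of -0.95 (SE 0.10, limma adjusted p = 0.0365), or 1.94-fold higher at 0.2 nM. The other 0.2 nM array was at 7.22 and the other 2 nM array at 6.65, so the groups did not overlap over 6 arrays either. Controls were at 6.78, 6.83 and 6.82, level with 2 nM, and the 20 nM arrays were at 7.17, 7.17 and 7.04. Each array at 0.2 nM was thus above every array of the other groups. Over all 6 arrays the difference was -0.83 (SE 0.15) and did not pass (limma adjusted p = 0.079). The shared-slide call was lost under 12 of 25 alternatives. The limma adjusted p was 0.0631 with quantile normalization, 0.269 with only the arrays compared and 0.9999 with normexp background correction (difference -0.90).

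The other probes that passed on the shared slide fall outside the rule for named probes, because they were below background on at least one side, and are named here after their values were seen. CUST_25053 was well above background on all 3 arrays at 0.2 nM, at -1.82, -1.81 and -3.16, and on none of the 9 other arrays of the series. It was tested only because it was detected at 0.2 nM, the group where it is high, so its p-values follow a choice made on the same difference. Its 2 nM arrays were listed at -6.16, -5.57 and -5.75, its controls between -5.94 and -4.43 and its 20 nM arrays between -5.70 and -4.98. It was at least 4.64-fold higher at 0.2 nM on the shared slide (limma adjusted p = 0.0437) and at least 3.52-fold higher over all 6 arrays (limma adjusted p = 0.0266). For such a bound, each dim array was given the lowest signal among its probes well above background, or the probe's own signal where that was higher, and the mean of these was set against the mean of the brighter group. CUST_1860, printed 5 times, was not well above background on any of the 4 arrays of the shared slide, so no fold is given. It was listed there at -5.36 and -5.43 at 0.2 nM and at -4.63 and -4.44 at 2 nM (limma adjusted p = 0.0441), against -3.70 and -2.30 on the arrays of the other slides. With quantile normalization CUST_1860 was the only probe that passed on the shared slide, so CUST_25053 lost its call there.

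Fewer than 2 probes in each direction passed and were well above background on all 4 arrays of the shared slide, so the rule also took probes that did not pass. CUST_13460 was at -3.49 and -3.87 at 0.2 nM and at -1.37 and -0.41 at 2 nM on the shared slide, a difference of 2.79 (SE 0.34, limma adjusted p = 0.0595). The other 2 nM array, at -3.09, was much lower than these, and the other 0.2 nM array was at -4.44 and below background. The controls, between -5.26 and -4.52, were below background on all 3 arrays. The 20 nM arrays, between -3.68 and -3.21, were well above it on 1. Only the 2 nM group had CUST_13460 detected on each of its 3 arrays. This probe was thus tested only through the group where it is high, so its p-value follows a choice made on the same difference. With normexp background correction its difference on the shared slide was 0.88.

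CUST_19025 was at -1.01 and -0.70 at 0.2 nM and at -2.17 and -2.09 at 2 nM on the shared slide, a difference of -1.28 (SE 0.16, limma adjusted p = 0.067). The low level was limited to these 2 arrays. The remaining 2 nM array, at -0.51, was above the remaining 0.2 nM array, at -1.11, and the controls and 20 nM arrays lay between -0.93 and -0.24. Normexp background correction gave a difference of -0.61 on the shared slide for CUST_19025. The difference between the shared slide and the other pair of arrays was -1.87 (SE 0.28) for this probe, with a limma adjusted p of 0.0616.

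**Figure D2:**
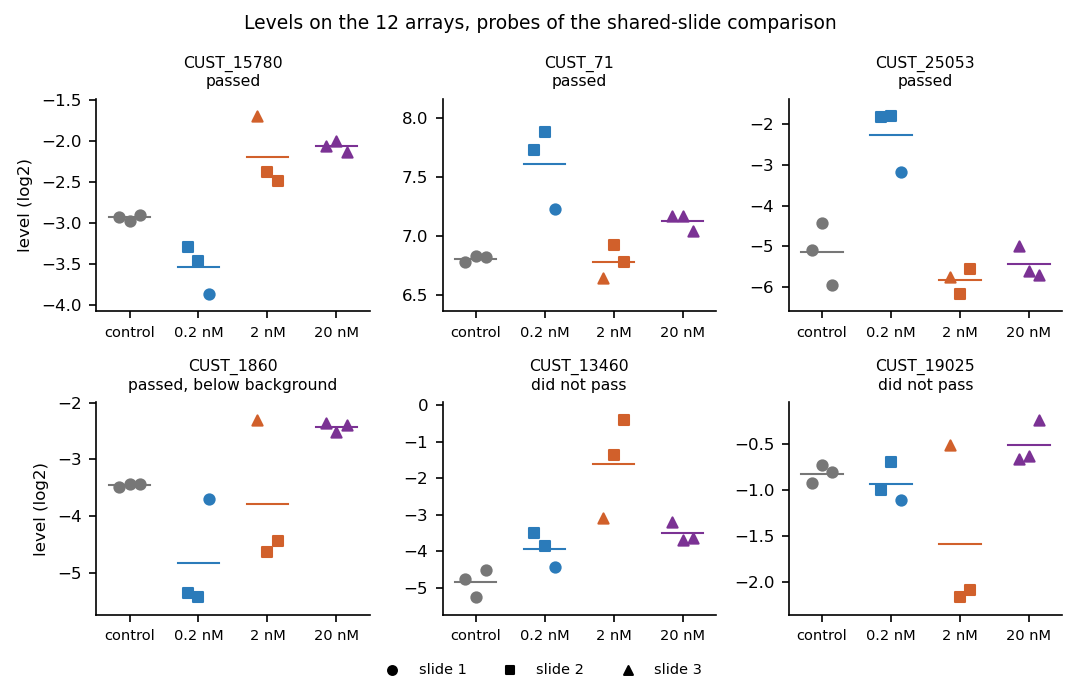
Level (log2, relative to the 75th percentile of the array) on each of the 12 arrays for 6 probes, by group on the horizontal axis; lines are group means (n = 3) and marker shapes give the slide. For CUST_15780 and CUST_71 the 3 arrays at 2 nM do not overlap the 3 at 0.2 nM, while the low 2 nM arrays of CUST_19025 are the 2 on slide 2.

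For each of the 4 probes named by the rule, the 2 probes with the most similar pattern over the 12 arrays were sought among those well above background on all of them. These correlations are descriptions over 12 arrays that share slides. Each is 1 of the 2 highest among 10428 or 10429 probes searched, so high values were selected. Low or high values on the same arrays, and differences in the same direction, follow largely from this choice. CUST_15780 was most like CUST_15400 (r = 0.96), which was higher by 0.67 on the shared slide, and like CUST_17644 (r = 0.92). CUST_71 was most like CUST_5359 (r = 0.94) and CUST_13094 (r = 0.90), which were lower at 2 nM by differences of -0.41 and -0.64. CUST_13460 was most like CUST_11473 (r = 0.94) and CUST_25005 (r = 0.93). CUST_19025 was most like CUST_1351 (r = 0.97) and CUST_7162 (r = 0.94), and both also had their lowest values on the 2 nM arrays of the shared slide, at -2.47 and -2.29 for CUST_1351 and at -0.96 and -0.99 for CUST_7162. None of these 8 probes passed on the shared slide (limma adjusted p from 0.110 to 0.204).

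The difference on the shared slide moved with the brightness of the probe. In the dimmest quartile of the tested probes, by mean level over the 12 arrays, the median difference between 2 and 0.2 nM was -0.097, and it was -0.066, 0.039 and 0.092 in the following quartiles. At an unadjusted p under 0.05 the dimmest quartile had 155 probes higher and 303 lower at 2 nM, while the brightest had 519 higher and 129 lower. On the other pair of arrays, where 2 nM was the brighter array, the order of the quartiles was the opposite, with medians of 0.10, 0.0097, -0.013 and -0.078. After quantile normalization, which gives every array the same distribution, the medians on the shared slide lay between -0.029 and 0.010. The brightest quartile then had 287 higher and 267 lower, the dimmest 202 and 185, and all quartiles together 1060 and 929. The balance of higher and lower probes by quartile on the shared slide therefore depended on the scaling. Equal distributions draw the quartile medians together by design, and signs were compared between scalings only for the named probes. The part of the array signal in this was not tested further.

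**Figure D3:**
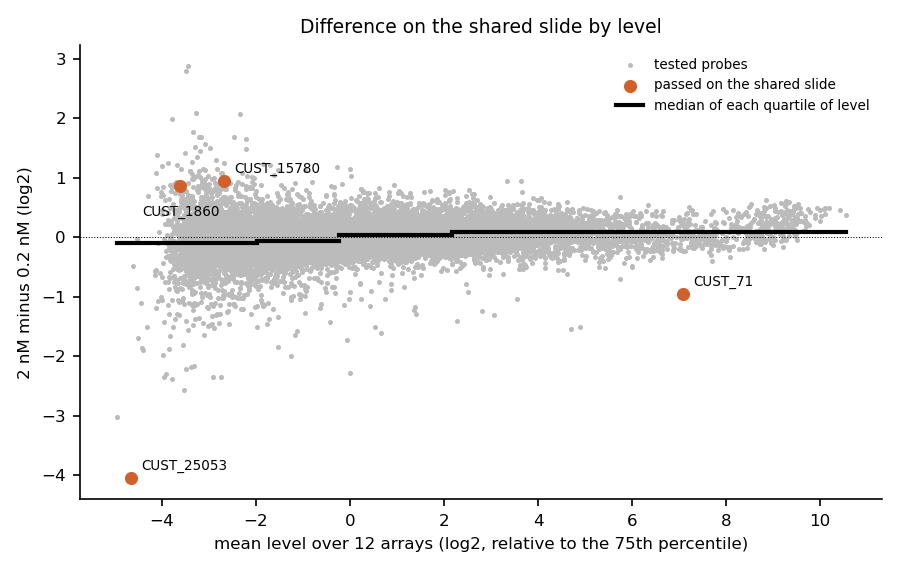
Difference between 2 and 0.2 nM on the shared slide (log2, vertical axis) against the mean level over the 12 arrays (log2, horizontal axis) for the 11910 tested probes; black lines are the medians of the quartiles of level, from -0.097 to 0.092. The probes that passed are orange, and CUST_71 is the only one of them in the brightest quartile.

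The other 2 nM and 0.2 nM arrays, none of which entered the shared-slide difference, gave a second reading of the same step. The sign was the same for 7687 of 11909 probes (64.5%, with 1 probe without a value). It was the same for 1641 of the 2193 probes at an unadjusted p under 0.05 on the shared slide (74.8%), of which the median difference was 0.40 on the shared slide and 0.23 in the same direction on the other pair. After quantile normalization the shares were 69.1% of all tested probes and 82.1% of those at an unadjusted p under 0.05. Among the 176 probes that differed by 2-fold or more on the shared slide the sign was the same for 95 (54.0%), and their median difference fell from 1.23 to 0.074 on the other pair. As given above, 129 of these 176 were in the dimmest quartile, where the sign was the same for 58.0% of all tested probes. The 2193 and the 176 probes were chosen by their shared-slide values, so smaller medians on the other pair follow in part from that choice. Probes are not independent replicates, and the other pair also carries the difference between the third and first slides.

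Across the 11909 probes the differences on the shared slide and on the other pair correlated at r = 0.26, and at r = 0.34 over the 10429 probes detected on every array of the series. For comparison, the shared-slide difference correlated at -0.037 with the step from control to 0.2 nM on the first slide and at -0.082 with the step from 2 to 20 nM on the third, which use none of its arrays. The arrays have slide, scaling and brightness in common, so these values are descriptions. In the fit, 85 probes passed on the other pair (0.714%), 64 higher and 21 lower at 2 nM, with 1 array on each side that is assumed to vary like the others. These counts cannot separate concentration from slide and are no support for the shared-slide calls. For the 4 probes that passed on the shared slide, the values on the other pair were as follows. CUST_15780 was at least 4.47-fold higher at 2 nM, its 0.2 nM array being below background, and CUST_1860 was higher by 1.40. CUST_71 had a difference of -0.58, and CUST_25053 was well above background at 0.2 nM only.

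**Figure D4:**
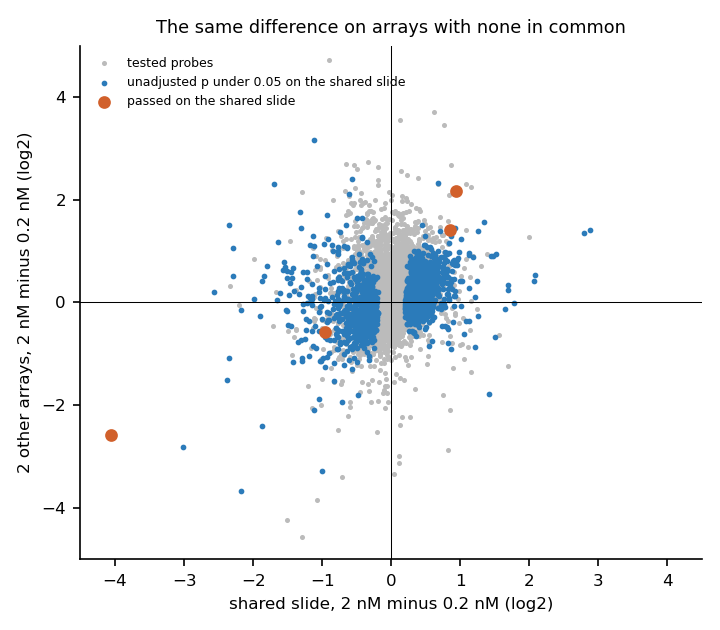
Difference between 2 and 0.2 nM on the pair of arrays outside the shared slide (log2, vertical axis) against that on the shared slide (log2, horizontal axis), 1 point per probe. The 4 probes that passed lie in the quadrants of equal sign, and of the probes at an unadjusted p under 0.05 (blue), 74.8% do.

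Over all 6 arrays 17 of 11910 probes passed, 12 higher and 5 lower at 2 nM (0.143% of those tested), of which CUST_15780 and CUST_25053 also passed on the shared slide. There were 2183 probes at an unadjusted p under 0.05. The 3 arrays of each group did not overlap for 2568 probes, or 21.6%, of which 1393 were higher and 1175 lower. An exact permutation test of 3 arrays against 3 cannot go below p = 0.10. With slide in the fit as a fixed block the difference is that of the shared slide, so 4 probes passed, 2 of them among the 17. With slide as a random block 16 passed, 14 of them among the 17.

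The 12 probes that rose differed by 1.47-fold to 2.54-fold, and 11 of them were well above background on all 6 arrays. Their differences lay between 0.51 and 0.95 on the shared slide and between 0.49 and 2.16 on the other pair. CUST_23566 had levels of 2.93, 2.95 and 2.99 at 0.2 nM and of 3.81, 3.87 and 3.91 at 2 nM, a difference of 0.90 (SE 0.11, limma adjusted p = 0.0266) or 1.87-fold. The SD was 0.03 at 0.2 nM and 0.05 at 2 nM (n = 3 each), with each group on 2 slides. A small spread helps a probe to pass, so these SDs were favoured by the choice. At 20 nM, with all arrays on the third slide, the SD was 0.23 (n = 3). The controls were at 2.91, 2.90 and 2.79, just below 0.2 nM, and the 20 nM arrays were at 3.93, 3.47 and 3.70. CUST_20560 was at 3.47, 3.22 and 3.38 at 0.2 nM and at 4.10, 4.29 and 4.30 at 2 nM, a difference of 0.88 (SE 0.13, limma adjusted p = 0.0383). The call was lost under 12 of 27 alternatives for CUST_23566 and under 17 of 27 for CUST_20560, and with slide as a fixed block for both (limma adjusted p = 0.067 and 0.0816). For both, the limma adjusted p was 0.604 with replicate number as a block and 0.792 with normexp background correction (differences 0.50 and 0.48). The controls of CUST_20560 were lower than both groups, with a mean of 2.88 (SD 0.24, n = 3), and its 20 nM arrays stood at 4.06, 4.11 and 4.16.

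Of the 5 probes that fell, CUST_24709 alone was well above background on all 6 arrays, with levels of -0.95, -0.96 and -1.02 at 0.2 nM and of -2.08, -2.00 and -1.78 at 2 nM, a difference of -0.97 (SE 0.15, limma adjusted p = 0.0409), or 1.96-fold higher at 0.2 nM. This call was lost under 20 of 27 alternatives, among them quantile normalization (limma adjusted p = 0.0591) and slide as a fixed block (limma adjusted p = 0.110). For CUST_24709 the limma adjusted p was 0.604 with replicate number as a block and 0.801 with normexp background correction (difference -0.18). Its controls, at -0.97, -0.86 and -0.98, were level with 0.2 nM, and its 20 nM arrays, at -2.15, -1.52 and -1.81, overlapped those at 2 nM. The second place for a fall went to CUST_18830, which did not pass. It was at -1.08, -1.05 and -1.10 at 0.2 nM and at -1.82, -1.50 and -1.54 at 2 nM (difference -0.54, SE 0.10, limma adjusted p = 0.0754). With normexp background correction the difference of CUST_18830 was -0.0015, so the fall was not seen there. Its controls, from -1.52 to -1.46, and its 20 nM arrays, from -1.56 to -1.45, were also below every 0.2 nM array.

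The other 4 probes that fell were at background on all 2 nM arrays (not well above it on any) and are named after their values were seen. Beside CUST_25053, CUST_12695 was well above background on the 3 arrays at 0.2 nM and on no other array of the series, so it too was tested only through the group where it is high. It was at least 2.23-fold higher at 0.2 nM (limma adjusted p = 0.0461). Its 0.2 nM arrays spread from -3.80 to -2.01. CUST_26315 was at least 4.95-fold higher at 0.2 nM (limma adjusted p = 0.0461) and was well above background on 1 control array and on all 3 arrays at 20 nM, where it lay between -3.08 and -2.80. CUST_6130 was at least 1.70-fold higher at 0.2 nM (limma adjusted p = 0.0461) and was well above background on all arrays of the controls and of 20 nM. The low level at 2 nM was thus not met at 20 nM for either of these.

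The remaining groups showed where the 17 probes stood along the concentrations. For all 12 that rose, every 20 nM array was above every 0.2 nM array and every control array was below every 2 nM array. Among the 1393 probes that were higher at 2 nM without overlap, both held for 372 (26.7%). The step from control to 0.2 nM on the first slide had a median of 0.049 over the 12 probes, from -0.93 to 0.49, and the step from 2 to 20 nM on the third slide a median of -0.11, from -0.36 to 0.014. Of these 24 steps, each with a lone array on one side, 1 passed, that of CUST_15780 from control to 0.2 nM, whose 0.2 nM array was not well above background. Among the 5 that fell, every 20 nM array was below every 0.2 nM array for 4, and every control array was above every 2 nM array for 2. Among the 1175 probes that were lower at 2 nM without overlap, these held for 73.3% and 43.5%, near the shares in the 5. These 17 probes were chosen from arrays on the same slides as the controls and the 20 nM arrays, and their spread came from all 12 arrays, so the pattern is a description.

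**Figure D5:**
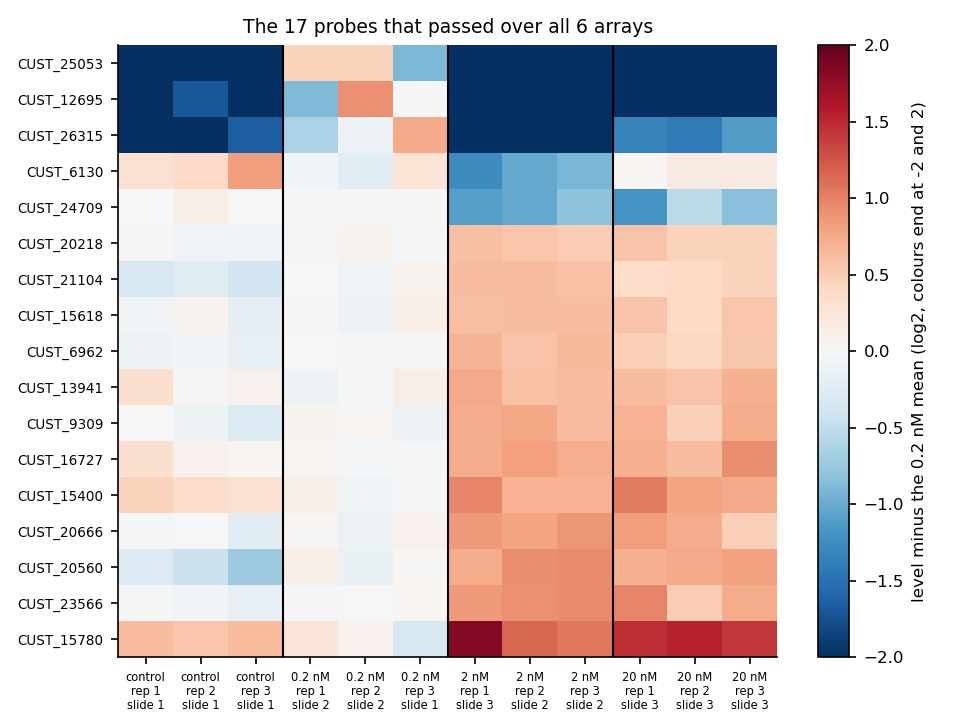
Level on each of the 12 arrays minus the mean at 0.2 nM (log2, colour, ending at -2 and 2) for the 17 probes that passed over all 6 arrays, ordered by the difference. The 12 probes in the lower rows are higher at 2 and 20 nM than at 0.2 nM on every array, and CUST_25053 and CUST_12695 stand out at 0.2 nM alone.

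A last reading used detection instead of level. This count was taken over all 26429 probes, tested or not. On the shared slide 289 of them were well above background on both arrays of one group and on neither of the other. Of these, 251 were so only at 0.2 nM and 38 only at 2 nM. For comparison, 602 and 874 probes were well above background on just 1 of the 0.2 nM arrays, and 822 and 561 on just 1 of the 2 nM arrays. The 0.2 nM arrays were also the brighter ones, as given above, and the part of brightness in the unequal split was not tested. On the other pair of arrays, 54 of the 251 were again detected at 0.2 nM alone and 23 at 2 nM alone. Of the 38, 4 were again detected at 2 nM alone and 5 at 0.2 nM alone. Of the 251 probes 97 were tested and of the 38 probes 10 were, and CUST_25053 alone passed on the shared slide.

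The largest bound at 2 nM was that of CUST_19092, at least 15.2-fold higher than at 0.2 nM on the shared slide. It was at -0.58 and -0.18 on the 2 nM arrays there and between -6.40 and -4.35 on the 10 other arrays, including the other 2 nM array at -4.83, on none of which it was well above background. The largest bound at 0.2 nM was that of CUST_14371, at least 6.30-fold higher, at -2.19 and -0.56 on the shared slide and at -6.12 on the other 0.2 nM array. Neither probe met the detection rule for testing, and in both the high level was seen on the shared slide alone.

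The counts of probes that passed also moved when 1 array was left out, inside or outside the comparison. The spread was taken from all 12, so control and 20 nM arrays entered it. Leaving out a compared array also changed the difference itself, and could change which probes passed. Without replicate 2 at 0.2 nM, no probe that passed on the shared slide was among those of the fit to all 12 arrays. On the shared slide, where 4 passed, leaving out replicate 1 at 20 nM gave 203 and leaving out replicate 1 at 0.2 nM gave 199. The count became 27 when replicate 2 at 2 nM was left out, 21 for replicate 3 at 2 nM and 10 for replicate 2 at 0.2 nM. It was 1 when control replicate 2 or control replicate 3 was left out, and 0 for control replicate 1 and for replicates 2 and 3 at 20 nM. Over all 6 arrays, where 17 passed, the count was 134 when replicate 1 at 20 nM was left out and 32 for replicate 1 at 0.2 nM. It was 10 for replicate 2 at 20 nM, 7 for control replicate 3, 5 for replicate 3 at 20 nM, 2 for replicate 3 at 0.2 nM and 1 for control replicate 2. It was 0 for control replicate 1, for replicate 2 at 0.2 nM, and for replicates 2 and 3 at 2 nM. With only the arrays compared in the fit, limma called 0 probes in both comparisons, with 1983 probes at an unadjusted p under 0.05 on the shared slide and 1526 over all 6 arrays.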

How the data were processed

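Each array's scanner output was deposited as spot intensity on a linear scale (1 dye, Cy3). Per the file headers, it was read with Agilent Feature Extraction 10.7.3.1, and the submitters' processing notes name version 10.7. The intensity used was the processed signal, which that program had corrected for background, with no scaling between arrays. A deposited table of the authors' own log2 values correlated with their own array's log2 intensity at a lowest r of 0.99896. All columns of that table had a median of about 4.34, and the values were uncentred and in the direction of the scanner values. The tool behind these log2 values is not named by the labels or headers used here.

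From each array's log2 intensity, the 75th percentile of its non-control spots was subtracted. Outlier flags of the scanner program, for uniformity and for the spot population, removed 507 to 729 spots per array, and no spot was saturated (0 spots). Spots of a probe were averaged, and 22407 probes were printed once and 4014 were printed 5 times. A probe was well above background on an array when over 0.5 of its spots were so marked, and was tested when this held on all 3 arrays of any group (11910 of 26429 probes, 45.1%). The number of arrays limits the precision.

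Differences were fitted with limma 3.58.1 in R 4.3.3 over all 12 arrays, with Benjamini-Hochberg adjustment over all tested probes at 0.05 for each contrast. The shared-slide fit had 1 mean for each of the 6 combinations of group and slide, which equals slide as a fixed block. The fit of all 6 arrays had 1 mean per group. The fits were tested on simulated data. Named probes were those that passed with the 2 largest rises and falls among probes well above background on all arrays compared, without overlap, and otherwise the smallest unadjusted p in that direction. The groups, probe rules and lists were chosen with earlier results of these data known. The gene lists and tissue markers were not tested (0 identifiers joined). Alternatives covered background, scaling, the deposited log2 values, the filter on dim probes, the arrays in the fit, variance, slide, replicate number and single arrays left out. The planned normexp background correction took the median signal, because the mean signal was not in the columns used here.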

Additional observations from a re-analysis of the deposited data

Results flagged for a closer look

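CUST_15780_PI414333748 rose from 0.2 to 2 nM both on the shared slide and on the other pair of arrays, but by different amounts. The difference was 0.94 on the shared slide and 2.16 on the other pair, and the test of the difference between them gave -1.22 (SE 0.17, limma adjusted p = 0.0451). The other pair is 1 array against 1 from different slides, assumed to vary like the others, and its 0.2 nM array was below background, so this value rests on single arrays. Of the tested probes, 18 passed this test of the difference, 3 with the larger value at the shared slide and 15 with the lower one. Groups of 3 arrays are too small for a test of single outlying arrays.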

How the results depend on the processing

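Counts are given for the shared slide, all 6 arrays and the other pair, where 4, 17 and 85 probes passed. Planned normexp gave 0, 0 and 0, with 32 and 71 probes at an unadjusted p under 0.05 in the first and second, and 5, 5 and 10 spots on replicate 1 at 0.2 nM and replicates 1 and 3 at 2 nM had local backgrounds over 500 intensity units. With those replaced, a setting added after the data were seen, the counts were 26, 9 and 56. Scaling to the percentile over detected probes gave 9 over all 6 arrays, and scaling to the median gave 60 (55 higher, 5 lower), 2 and 56 (26 higher, 30 lower). Median scaling moved the median of all probes on the shared slide to 0.096, and the absence of a filter moved it to 0.14. Quantile normalization and the deposited log2 values each gave 1 and 5 in the first and second comparison. Without a filter on dim probes the counts were 7, 1 and 414, and with detection on all 6 arrays 1 and 11. Only the arrays compared gave 0 and 0, and the 6 arrays with 4 combinations gave 0 and 0 for the shared slide and the other pair. Array weights gave 37 over all 6 arrays and 132 on the other pair, and eBayes with trend and robust gave 52 (47 higher, 5 lower) and 26. Joint adjustment of the exposure contrasts gave 6 over all 6 arrays, and slide as a fixed block 4. Without the filter on dim probes, no probe that passed in the first or second comparison was among the 4 or the 17. The cause of these changes was not tested.

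Leaving out 1 array at a time gave 0 to 203 probes on the shared slide, 0 to 134 over all 6 arrays and 38 to 193 on the other pair. Same-numbered arrays deviated together at r of -0.26, 0.11 and -0.29. The highest r, 0.37, was between replicate 3 at 0.2 nM and replicate 1 at 2 nM, the arrays outside the shared slide. Slide and replicate number are mixed in these values, so they cannot show whether the numbers pair the arrays. The replicate block called 0 probes over all 6 arrays (981 at an unadjusted p under 0.05). No paired analysis was possible on the shared slide because its groups share only replicate number 2. For the 5 named probes that passed, 57 of the alternative values kept the call and 73 lost it. For the 3 named probes that did not pass, 63 stayed so and 13 passed. None of the 8 changed direction (0 values), but planned normexp shrank all. On the shared slide, leaving out replicate 3 at 0.2 nM or replicate 1 at 2 nM could change nothing. Each is alone in its combination of group and slide, yet these settings count as alternatives here and for CUST_15780 and CUST_71 above. The fits of only the arrays compared and of the 6 arrays with 4 combinations gave the same shared-slide values and were counted separately. Quantile normalization and the deposited log2 values were nearly alike and were also counted separately. At an unadjusted p under 0.05 they gave 1989 and 1996 probes on the shared slide and 2288 and 2280 over all 6 arrays. Over probes detected on all 12 arrays, the correlation of the shared-slide difference with that of the other pair was 0.34 and with the step on the third slide -0.15, against 0.26 and -0.082 over all tested probes. The count of probes crossing detection was 302 when every spot had to be well above background. Signal over background limits the dim probes: the median SE on the shared slide was 0.22 in the dimmest quartile and 0.12 in the brightest.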
